A study of Rattus norvegicus with 172 samples.

Results

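Neurotrophins and their receptors were followed in dentate granule cells of rats in 4 models of epilepsy. The members were the 5 genes Bdnf, Ntf3, Ntrk2, Ntrk3 and Ngfr, taken as every probe set whose annotated gene symbol was one of these names, which gave 10 of the 31099 probe sets on the array. A gene was represented by its brightest probe set. Of the 5 genes, 4 passed the filter on low signal and were tested together with all 10761 genes that passed; Ngfr did not pass and is given by its level only.

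The animals were 164 male Sprague-Dawley rats of 175 to 250 g, 41 controls and 123 treated rats, from 7 laboratories, and their granule cell layer was cut out by laser from frozen hippocampal sections. In the pilocarpine model (laboratories A and B), rats received methylscopolamine at 1 mg/kg and then 300 to 350 mg/kg of pilocarpine or saline, and status epilepticus was stopped with pentobarbital after 90 min. In the kainate model, rats received kainic acid at 5 mg/kg every hour, or saline, until status epilepticus; seizures ended by themselves after 6 to 8 h in laboratory A, whereas laboratory B began with 7.5 mg/kg and stopped them with pentobarbital at 90 min. The SSSE model (usually read as self-sustaining status epilepticus, laboratory A only) and these 2 chemical models were sampled 1, 3 and 10 days after status epilepticus. Kindling, which is the build-up of seizures by repeated stimulation, was sampled at seizure stages 2, 4 and 5 (laboratories A and B). How SSSE and kindling were induced, and how their controls were handled, is not given in the sources used here. Each laboratory had its own controls, and every group held 6 rats except SSSE controls (5), day 3 (5) and day 10 (4). Each rat is a biological replicate. Because each laboratory ran 1 model, laboratory and model cannot be told apart.

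Neurotrophins are secreted growth factors that act through receptor tyrosine kinases, the Trk family. Brain-derived neurotrophic factor, the product of Bdnf, binds TrkB, the product of Ntrk2, while neurotrophin-3, the product of Ntf3, binds chiefly TrkC, the product of Ntrk3. The p75 receptor, the product of Ngfr, binds all neurotrophins and, with sortilin, their uncleaved precursors. In the dentate gyrus Bdnf is a classical activity-regulated gene, Ntf3 is a marker of mature granule cells, and TrkB also exists in a truncated form that astrocytes make.

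The deposited values are linear signal intensities, set out here as log2(signal + 16). On this scale a difference of 1 is close to a doubling of the signal well above the offset of 16, and more than a doubling near it. Among granule cell markers, the median signal over all rats was 1895 for Prox1 and 1233 for Calb1. The others on the array ran from 4.32 for Tdo2 and 6.18 for Pdzd2, which did not pass the filter, to 3000 for Bcl11b. Markers of other cells were present too, with median signals of up to 1626 among astrocyte genes (Gja1) and 1675 among oligodendrocyte genes (Mbp). Gad1, the GABA-synthesizing enzyme that granule cells can also express, had 2331. The other interneuron markers on the array ran from 14.4 for Gad2 to 53.0 for Vip. Microglial and macrophage markers ran from 2.6 for Itgam and 3.91 for Trem2 to 256 for Ctss. The labels of 2 rats contradicted themselves (rat 3 of SSSE day 1, and rat 4 at stage 2 of kindling in laboratory A), and 5 rats correlated less well with their own group than its other members did (SSSE day 3 rat 4, kainate laboratory B day 10 rat 5, pilocarpine laboratory A day 10 rats 2 and 5, and laboratory B day 10 rat 2). All were kept, and each result was repeated without them.

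Both ligand genes have several transcription starts. RefSeq (build GRCr8) lists 6 windows for Bdnf and 3 for Ntf3; the table held no entry for Ntrk2, Ntrk3 and Ngfr. The 250 bases before 4 of these starts are shown, which are those with a motif match except 1 Ntf3 start that lies 1 base from another, because the ligands moved in opposite directions in the arrays and Bdnf is known for promoters that respond to calcium through a cAMP response element (CRE). Capitals mark matches to any of the motifs searched on both strands: the CRE core TGACG, the CRE with a free base TGACGTNA, the AP-1 site TGANTCA, the EGR site GCGNGGGCG, the E-box CACGTG and the Sp1 box GGGCGG. A CRE with a free base contains the core or its other strand.
Bdnf window at chr3:116637608-116637857 (plus strand): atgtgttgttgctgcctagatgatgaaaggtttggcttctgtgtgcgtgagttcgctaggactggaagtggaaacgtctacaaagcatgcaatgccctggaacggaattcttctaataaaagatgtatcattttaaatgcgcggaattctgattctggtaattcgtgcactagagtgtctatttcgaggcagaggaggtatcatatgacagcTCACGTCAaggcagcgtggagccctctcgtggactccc
Bdnf window at chr3:116621721-116621970 (plus strand): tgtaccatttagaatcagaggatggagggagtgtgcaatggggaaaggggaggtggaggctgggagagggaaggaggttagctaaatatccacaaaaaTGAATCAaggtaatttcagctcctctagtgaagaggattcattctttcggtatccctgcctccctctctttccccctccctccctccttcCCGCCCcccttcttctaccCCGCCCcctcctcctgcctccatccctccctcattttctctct
Ntf3 window at chr4:160668908-160669157 (minus strand): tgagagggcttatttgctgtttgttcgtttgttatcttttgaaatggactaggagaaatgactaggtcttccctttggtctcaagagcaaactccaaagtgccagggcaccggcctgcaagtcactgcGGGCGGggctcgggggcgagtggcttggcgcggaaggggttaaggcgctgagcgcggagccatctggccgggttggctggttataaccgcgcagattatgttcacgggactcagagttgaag
Ntf3 window at chr4:160670624-160670873 (minus strand): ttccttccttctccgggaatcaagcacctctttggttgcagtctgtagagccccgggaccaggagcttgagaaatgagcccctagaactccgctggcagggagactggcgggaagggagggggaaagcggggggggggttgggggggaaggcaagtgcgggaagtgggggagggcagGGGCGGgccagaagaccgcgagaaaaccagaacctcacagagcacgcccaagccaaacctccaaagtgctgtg

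The first Bdnf window held TCACGTCA, a CRE with a free base, at positions -38 to -31 counted back from the start. Such a match was found in 2.88% of all 33469 windows of this length, and the core alone in 18.2%. The second Bdnf window held the AP-1 sequence TGAATCA at -152 to -146, a motif found in 6.34% of windows, and a pair of Sp1 boxes. The other 4 Bdnf windows held none of the motifs searched. Neither the CRE core nor AP-1, EGR and E-box letters occurred in the 3 Ntf3 windows, and each held a single Sp1 box, a motif of 30.5% of all windows. The shares are per window, whereas 6 Bdnf windows and 3 Ntf3 windows, a pair of which nearly coincide, were searched for every motif. A gene with more windows has more chances of a match, and the contrast between the genes was not tested. A match describes these letters only, and the arrays do not show which start was used.

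Ntf3, the ligand of TrkC, was lower than in controls after every treatment, with the largest falls 1 day after pilocarpine and kainate. In pilocarpine laboratory A, controls ranged from 9.79 to 10.62 (median 10.19) and day 1 rats from 7.18 to 9.08 (median 7.65). In laboratory B the ranges were 10.45 to 11.12 (median 10.72) and 6.86 to 9.40 (median 8.02). In kainate laboratory A, controls lay between 10.14 and 10.82 (median 10.48) and day 1 rats between 5.79 and 8.21 (median 7.46). In laboratory B, 10.00 to 10.60 (median 10.31) faced 5.68 to 8.33 (median 6.73). All 12 of 12 rats were below every control of their own laboratory in both models, so the groups did not overlap. The fall averaged over laboratories was -2.53 ± 0.32 (log2, SE; n = 12 against 12; limma adjusted p = 6.09e-08) after pilocarpine, or 5.78-fold, and -3.39 ± 0.38 (adjusted p = 5.49e-10) after kainate, or 10.4-fold. At pilocarpine day 1 all 4 tested members were called changed, against a background of 32.1% of genes; at kainate day 1 all 4 were called, against 41.6%. In tissue cut out in bulk, fewer cells that make a transcript and less transcript per cell cannot be told apart. Of 11 granule cell markers tested, 9 also fell at pilocarpine day 1 and 8 at kainate day 1, where 1 rose, with median changes of -0.74 in each; their part in the fall of Ntf3 was not tested.

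**Figure D1:**
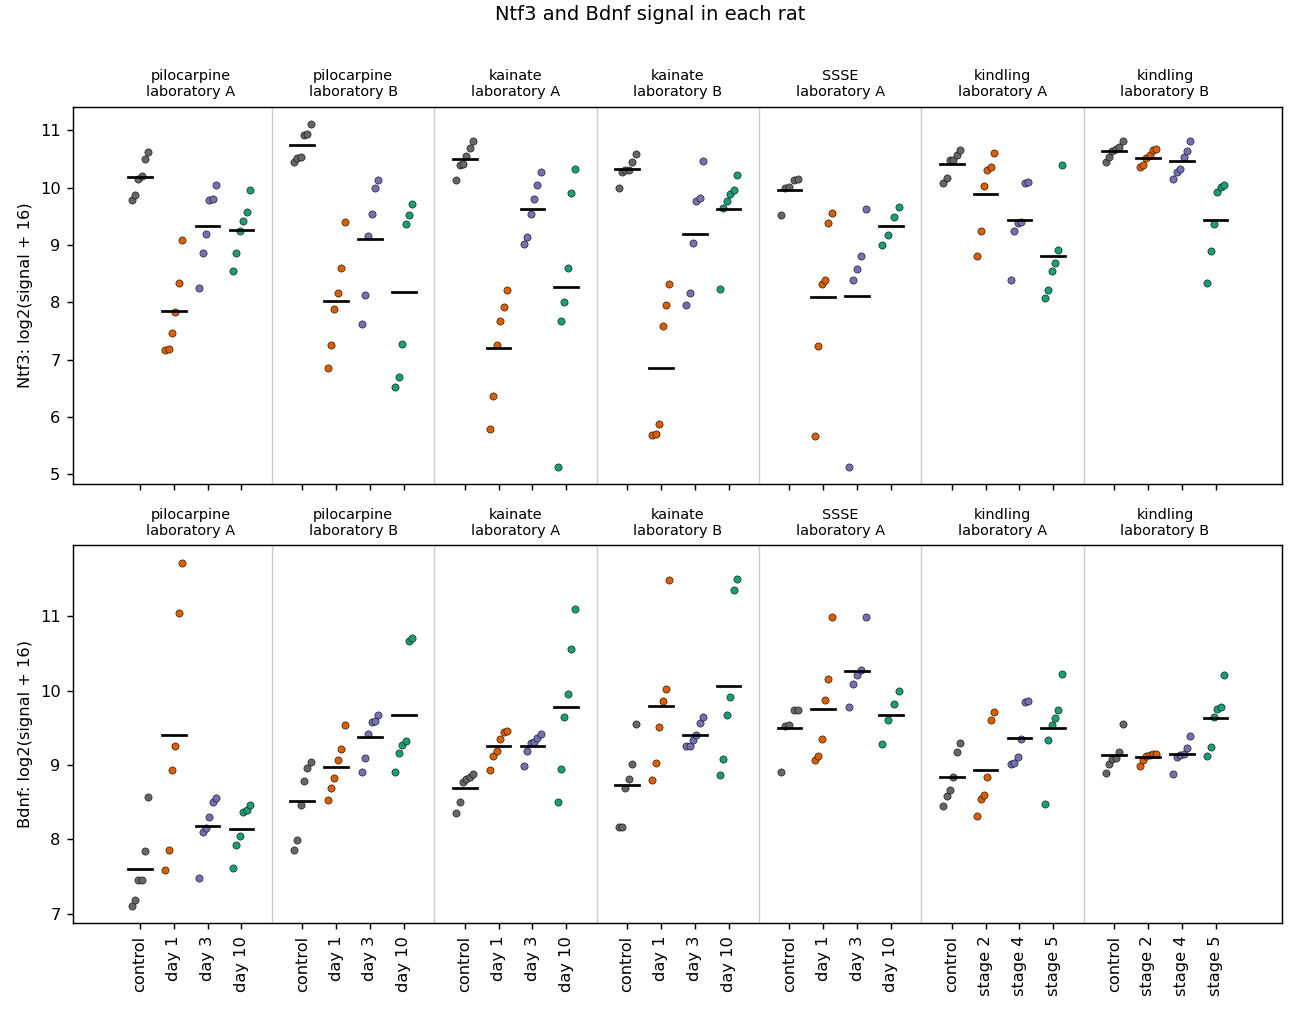
Signal of Ntf3 (top) and Bdnf (bottom) in each of the 164 rats, as log2(signal + 16) on the vertical axes, by laboratory and by day or stage; each point is a rat and each bar the group mean. Ntf3 of all 12 rats lies below the controls of its laboratory 1 day after pilocarpine and after kainate, while Bdnf is spread widely, from 7.58 to 11.72 in pilocarpine laboratory A at day 1.

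At later times Ntf3 stayed lower in many rats and the groups became wider. At 3 days after pilocarpine the fall was -1.26 ± 0.32 (limma adjusted p = 0.00643), with 9 of 12 rats below all their controls, and at 10 days -1.74 ± 0.32 (adjusted p = 0.000351), with 11 of 12 below. The background of called genes was 11.7% and 8.93%. At day 10 of laboratory B, values ran from 6.53 to 9.72, and rats 1, 2 and 3 (7.28, 6.70 and 6.53) lay well below rats 4, 5 and 6 (9.72, 9.36 and 9.53). At 3 days after kainate the difference was -1.0 ± 0.38 (adjusted p = 0.104; background 7.96%), and at 10 days Ntf3 was lower by -1.47 ± 0.38 (adjusted p = 0.0117; background 6.28%), with 10 of 12 rats below all controls on each day. That day 10 call was lost without the rats numbered 2 (-1.31, adjusted p = 0.0819) and without those numbered 4 (-1.44, adjusted p = 0.0546). The 6 rats of kainate laboratory A at day 10 had 9.91, 8.00, 5.14, 8.60, 10.33 and 7.68, so that 5 of 6 were below the lowest control and the lowest of them had a signal of 19.2 against at least 1111 in controls. The level rose again between days: it was 2.39 ± 0.38 higher at day 3 than at day 1 of kainate (adjusted p = 2.92e-06; 31.1% of genes called between these days) and 1.92 ± 0.38 higher at day 10 than at day 1 (adjusted p = 8.74e-05; 33% called), and 1.27 ± 0.32 higher at day 3 than at day 1 of pilocarpine (adjusted p = 0.00329; 23.2% called). Between days 3 and 10 neither kainate nor pilocarpine passed (-0.47 ± 0.38 and -0.48 ± 0.32; adjusted p = 0.637 and 0.511; 0.743% and 1.68% called), nor did days 1 and 10 of pilocarpine (0.79 ± 0.32, adjusted p = 0.0844; 15.9% called).

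In the SSSE model Ntf3 was low in some rats and near the control level in others. The 5 controls had 10.02, 10.00, 10.14, 10.15 and 9.52. At day 1 the 6 rats ranged from 5.66 to 9.56 (median 8.35), and 5 of 6 were below the lowest control. The 5 rats of day 3 had 9.64, 8.59, 5.12, 8.39 and 8.81, of which 4 were below the lowest control. The 4 of day 10 had 9.50, 9.67, 9.0 and 9.17, of which 3 were below it. The differences were -1.87 ± 0.66, -1.86 ± 0.69 and -0.63 ± 0.73 (limma adjusted p = 0.0678, 0.145 and 0.863), and none passed. These errors are pooled over all SSSE groups. The SD was 0.26 in controls, 1.45 at day 1, 1.73 at day 3 and 0.30 at day 10, so the day 10 error reflects the wide earlier groups. Without rat 4 of day 3 the difference on that day was -1.11, and that at day 1 was called (adjusted p = 0.0144), as it also was without day 1 rat 4 (-2.13) or rat 6 (-2.17).

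In kindling, Ntf3 fell at the last stage in both laboratories. Over stages 2, 4 and 5 the differences were -0.31 ± 0.21, -0.57 ± 0.21 and -1.40 ± 0.21 (n = 12 against 12 each), and only stage 5 passed (limma adjusted p = 0.00013, a 2.64-fold fall; 0.986 and higher at the other stages, where 0% of all genes tested passed, with unadjusted p = 0.134 and 0.00771 for Ntf3). In laboratory A, controls ranged from 10.08 to 10.66 (median 10.49) and stage 5 rats from 8.08 to 10.39 (median 8.62), with rat 1 alone inside the control range. In laboratory B, controls ranged from 10.46 to 10.81 (median 10.66) and stage 5 rats from 8.33 to 10.05 (median 9.65), with no overlap. Stage 5 was lower than stage 2 by -1.09 ± 0.21 (adjusted p = 0.00234; 2.65% of genes called). Against stage 4 the difference was -0.83 ± 0.21 (adjusted p = 0.125; 0.0186% called). At stage 5, 2 of the 4 members were called, Ntf3 and Bdnf, against a background of 7.1%.

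Bdnf, the ligand of TrkB, was higher than in controls in 20 of 21 comparisons within a laboratory, but few of these passed and the spread between rats was wide. In kainate laboratory A the rise was small and even at days 1 and 3: controls ranged from 8.35 to 8.88 (median 8.79), day 1 rats from 8.93 to 9.46 (median 9.27) and day 3 rats from 8.99 to 9.41 (median 9.30), so that 6 of 6 rats exceeded all controls on each day. Bdnf was not called on either day in this laboratory alone, where 21.6% and 1.47% of genes were called. In laboratory B, controls ranged from 8.17 to 9.55 (median 8.75) and day 1 rats from 8.80 to 11.49 (median 9.69), and 3 of 6 exceeded all controls. Averaged over both, Bdnf rose by 0.80 ± 0.26 at day 1 (limma adjusted p = 0.0104) and by 1.21 ± 0.26 at day 10 (adjusted p = 0.00174, 2.31-fold), while day 3 gave 0.62 ± 0.26 (adjusted p = 0.148). The day 1 call was lost without the rats numbered 1 (0.73, adjusted p = 0.0604). At day 10 the values were 9.65, 9.96, 10.56, 11.09, 8.51 and 8.94 in laboratory A and 9.91, 11.35, 8.87, 9.67, 11.50 and 9.07 in laboratory B, against at most 8.88 and 9.55 in their controls. Thus 9 of 12 exceeded all controls, and the rest lay among them.

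After pilocarpine the day 1 rise of Bdnf was uneven between rats. In laboratory A, controls ranged from 7.10 to 8.57 (median 7.45), and the 6 day 1 rats had 11.72, 8.94, 11.04, 9.26, 7.86 and 7.58, of which 4 exceeded all controls. In laboratory B, controls ranged from 7.86 to 9.03 (median 8.62) and day 1 rats from 8.53 to 9.54 (median 8.95), and 3 of 6 exceeded all controls. The mean rise was 1.13 ± 0.29 (limma adjusted p = 0.00211, 2.19-fold), made up of 1.80 ± 0.41 in laboratory A (adjusted p = 0.00118; 22.6% of genes called there) and 0.46 ± 0.41 in laboratory B (adjusted p = 0.475; 15.1% called). The difference between laboratories was -1.33 ± 0.58, adjusted p = 0.435. Days 3 and 10 gave 0.72 ± 0.29 and 0.84 ± 0.29 (adjusted p = 0.0995 and 0.0568), and the day 10 value was called in some alternative settings. In SSSE the differences were 0.27 ± 0.29, 0.78 ± 0.30 and 0.18 ± 0.32 (adjusted p = 0.563, 0.16 and 0.912; background 12.5%, 3.14% and 0.344%). All 5 SSSE rats of day 3 (9.77, 10.22, 10.99, 10.09 and 10.27) were above the highest of the 5 controls (9.74), although the comparison did not pass the test over all genes.

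In kindling, Bdnf rose at stage 5 by 0.58 ± 0.15 (limma adjusted p = 0.0143, 1.49-fold), after 0.04 ± 0.15 at stage 2 and 0.28 ± 0.15 at stage 4 (adjusted p = 0.997 and 0.986). In laboratory A, controls ranged from 8.45 to 9.29 (median 8.75) and stage 5 rats from 8.47 to 10.23 (median 9.59). In laboratory B the ranges were 8.89 to 9.54 (median 9.09) and 9.12 to 10.21 (median 9.70). In total, 9 of 12 stage 5 rats exceeded their controls. Stage 5 was higher than stage 2 by 0.54 ± 0.15 (adjusted p = 0.0409). The stage 5 call was lost without the rats numbered 4 (0.43, adjusted p = 0.123) or 5 (0.51, adjusted p = 0.0932). At the same stage the activity-regulated genes Fos, Arc and Inhba fell, by -1.28 ± 0.27, -0.89 ± 0.15 and -0.51 ± 0.16 (adjusted p = 0.00257, 0.000407 and 0.0393).

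**Figure D2:**
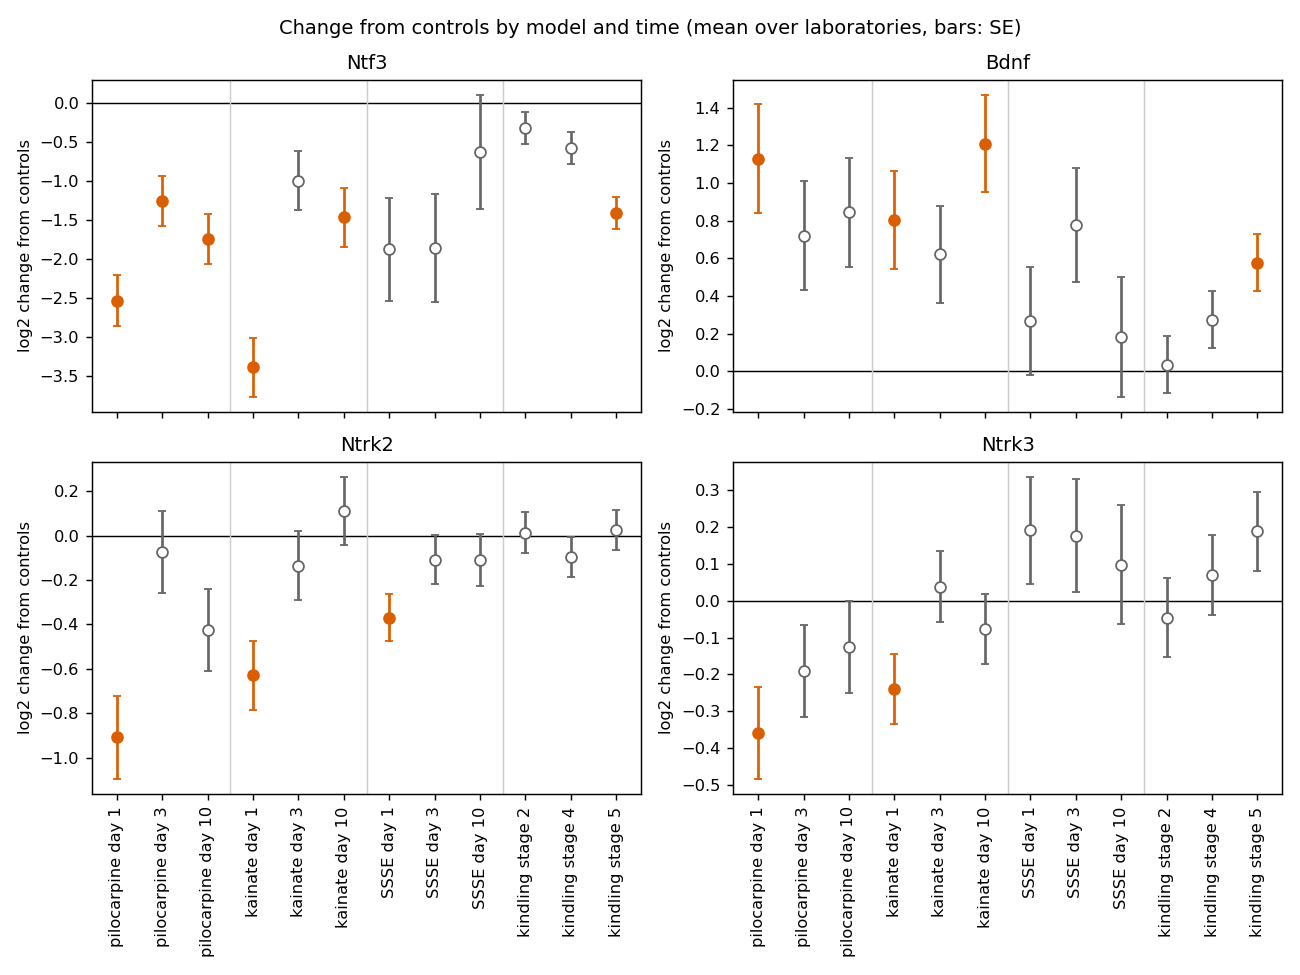
Change from controls of the same laboratory for each tested member, as the log2 difference averaged over the laboratories of a model (vertical axes), at each of 12 model and time points; bars are SE, and filled orange points passed limma at adjusted p under 0.05. Ntf3 lies below 0 at all 12 points and Bdnf above 0 at all 12, and the Ntrk2 falls that passed the test are those of day 1 of pilocarpine, kainate and SSSE.

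Bdnf was read by 2 probe sets, and their changes were set side by side. Probe set 1368677_at represented Bdnf above; 1368678_at was dimmer, with a median signal of 58.5, and passed the filter in its own right (above its array's median in 152 of 164 rats). When all 14282 kept probe sets were fitted, the dimmer one rose at pilocarpine day 1 by 0.73 ± 0.25 (limma adjusted p = 0.0251) and at kainate day 10 by 1.02 ± 0.25 (adjusted p = 0.00929), where the brighter one rose by 1.13 ± 0.29 and 1.21 ± 0.26. The share of probe sets called was 29.6% and 5.69% in these fits. At kainate day 1 it gave 0.31 ± 0.25 (adjusted p = 0.35) against 0.80 ± 0.26, and at kindling stage 5 0.37 ± 0.15 (adjusted p = 0.128) against 0.58 ± 0.15, so these calls of Bdnf rest on the brighter probe set (40% and 5.75% of probe sets called). The difference between probe sets was itself tested in each laboratory. The brighter one changed by -0.25 to 0.59 more than the dimmer one over 21 comparisons, and 4 of 21 had an exact two-sided permutation p under 0.05 before adjustment. None of the 105 such tests over Bdnf and Ntrk2 passed after adjustment (lowest adjusted p = 0.227), in a design where 6 rats against 6 can give no exact p below 0.00216.

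**Figure D3:**
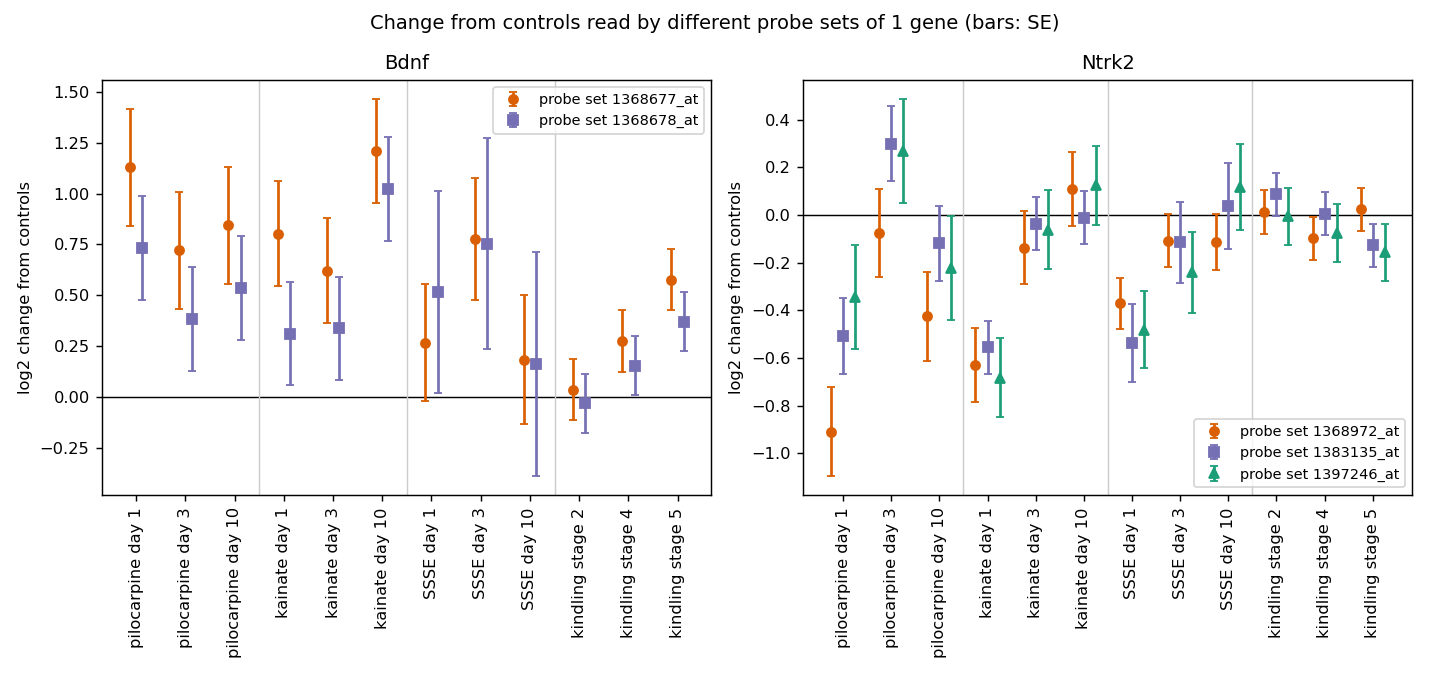
Log2 change from controls (vertical axes, averaged over laboratories; bars are SE) read by the 2 probe sets of Bdnf (left) and by the 3 bright probe sets of Ntrk2 (right) at the 12 model and time points. The dimmer Bdnf probe set 1368678_at gives 0.31 against 0.80 at kainate day 1 and 1.02 against 1.21 at kainate day 10, and all 3 Ntrk2 probe sets lie below 0 at day 1 of pilocarpine, kainate and SSSE.

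The highest Bdnf values occurred in rats in which other activity-regulated genes were high as well. Bdnf was more than 1 above the highest control of any laboratory (9.74) in 8 of 123 treated rats, a limit that was chosen after the values were seen. In all 8 rats Fosb, a transcription factor gene of the Fos family, was between 9.83 and 11.63, against at most 7.41 in controls. Arc, an activity-induced synaptic gene, was between 8.61 and 11.44 in them, against at most 7.78 in controls. Over all 123 treated rats, 19 had Fosb and 13 had Arc above every control. The 8 rats were spread over pilocarpine day 1 (laboratory A rats 1 and 3), kainate day 1 (laboratory B rat 6), kainate day 10 (laboratory A rat 4 and laboratory B rats 2 and 5), SSSE day 1 (rat 5) and SSSE day 3 (rat 4), and none came from kindling. The rat with the highest Bdnf of its group was the rat with the highest Arc in 12 of 21 treated groups, the rat with the highest Fosb in 8 of 21 and the rat with the lowest Ntf3 in 5 of 21. A rat taken at random from each group would match in 3.6. Among the 8 rats Ntf3 ran from 5.12 in SSSE day 3 rat 4 to 9.90 in kainate laboratory B day 10 rat 5.

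**Figure D4:**
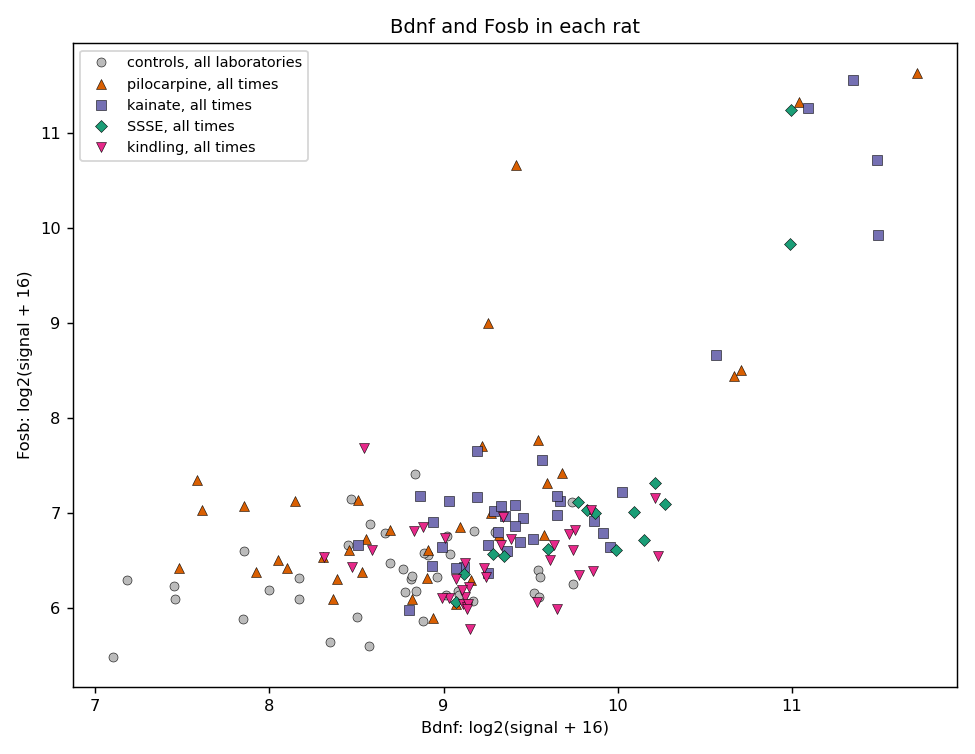
Bdnf (horizontal axis) and Fosb (vertical axis) in each of the 164 rats, both as log2(signal + 16); grey circles are controls of all laboratories and coloured symbols are treated rats by model, all times together. The 8 rats with the highest Bdnf, from 10.99 to 11.72, have Fosb of at least 9.83, while no control exceeds 9.74 for Bdnf or 7.41 for Fosb.

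Ntrk2, which encodes TrkB, was lower 1 day after status epilepticus in all 3 models of it. Averaged over laboratories, it was higher again at day 3 of pilocarpine and kainate. In pilocarpine laboratory B it was low once more at day 10 (mean 7.91, against 8.17 at day 1). In SSSE no difference between days passed. In pilocarpine laboratory A, controls ranged from 8.12 to 8.63 (median 8.43) and day 1 rats from 6.84 to 7.90 (median 7.30), with no overlap. In laboratory B, controls ranged from 8.47 to 9.54 (median 8.91) and day 1 rats from 7.24 to 9.06 (median 8.20), with 3 of 6 inside the control range. In kainate laboratory A, controls ranged from 8.28 to 8.90 (median 8.54) and day 1 rats from 7.75 to 8.28 (median 7.96). In laboratory B the ranges were 7.86 to 8.18 (median 8.01) and 6.55 to 7.72 (median 7.40). Only 1 of these 12 kainate rats was not below all its controls. The falls were -0.91 ± 0.19 (limma adjusted p = 0.000155) after pilocarpine and -0.63 ± 0.15 (adjusted p = 0.000911) after kainate. In SSSE the 5 controls had 9.05, 8.92, 8.86, 8.90 and 9.25 and the 6 day 1 rats ranged from 8.47 to 8.80 (median 8.61), all below the controls, for a fall of -0.37 ± 0.11 (adjusted p = 0.0284; 12.5% of genes called). Ntrk2 was the only member called there. That call was lost without control 1 or 5 or without day 1 rat 2, 3 or 5, of which rat 3 is the one with conflicting labels (-0.31 to -0.36, adjusted p = 0.0509 to 0.0708).

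At later times no model-wide Ntrk2 difference passed. Between day 1 and day 3 the level rose by 0.83 ± 0.19 after pilocarpine (limma adjusted p = 0.000973) and by 0.49 ± 0.15 after kainate (adjusted p = 0.012), and between day 1 and day 10 of kainate by 0.74 ± 0.15 (adjusted p = 0.000196). In SSSE no member passed between times (0.604% of genes called between days 1 and 3, 5.85% between days 1 and 10 and 0% between days 3 and 10), and Ntrk2 was 0.26 ± 0.11 higher at day 3 than at day 1 (adjusted p = 0.217). At 10 days after pilocarpine the laboratories went apart: laboratory A differed from its controls by 0.18 ± 0.26 (adjusted p = 0.815; 0.753% of genes called) and laboratory B by -1.03 ± 0.26 (adjusted p = 0.00974; 8.38% called). In laboratory B the day 10 rats had 7.96, 6.86, 7.18, 8.51, 8.79 and 8.17, and rats 1, 2 and 3 were again the lowest, as for Ntf3. The summed signal of 14 astrocyte markers was 4538, 2755 and 3092 in rats 1, 2 and 3 and 8037, 6972 and 6682 in rats 4, 5 and 6, against 5983 to 10527 in controls. Its part in the fall was not tested. The difference between laboratories was -1.22 ± 0.37, which did not pass (adjusted p = 0.199). In kindling Ntrk2 changed by 0.01, -0.10 and 0.02 (SE 0.09 each) at stages 2, 4 and 5, with 95% intervals from -0.28 to 0.21 over the 3 stages.

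**Figure D5:**
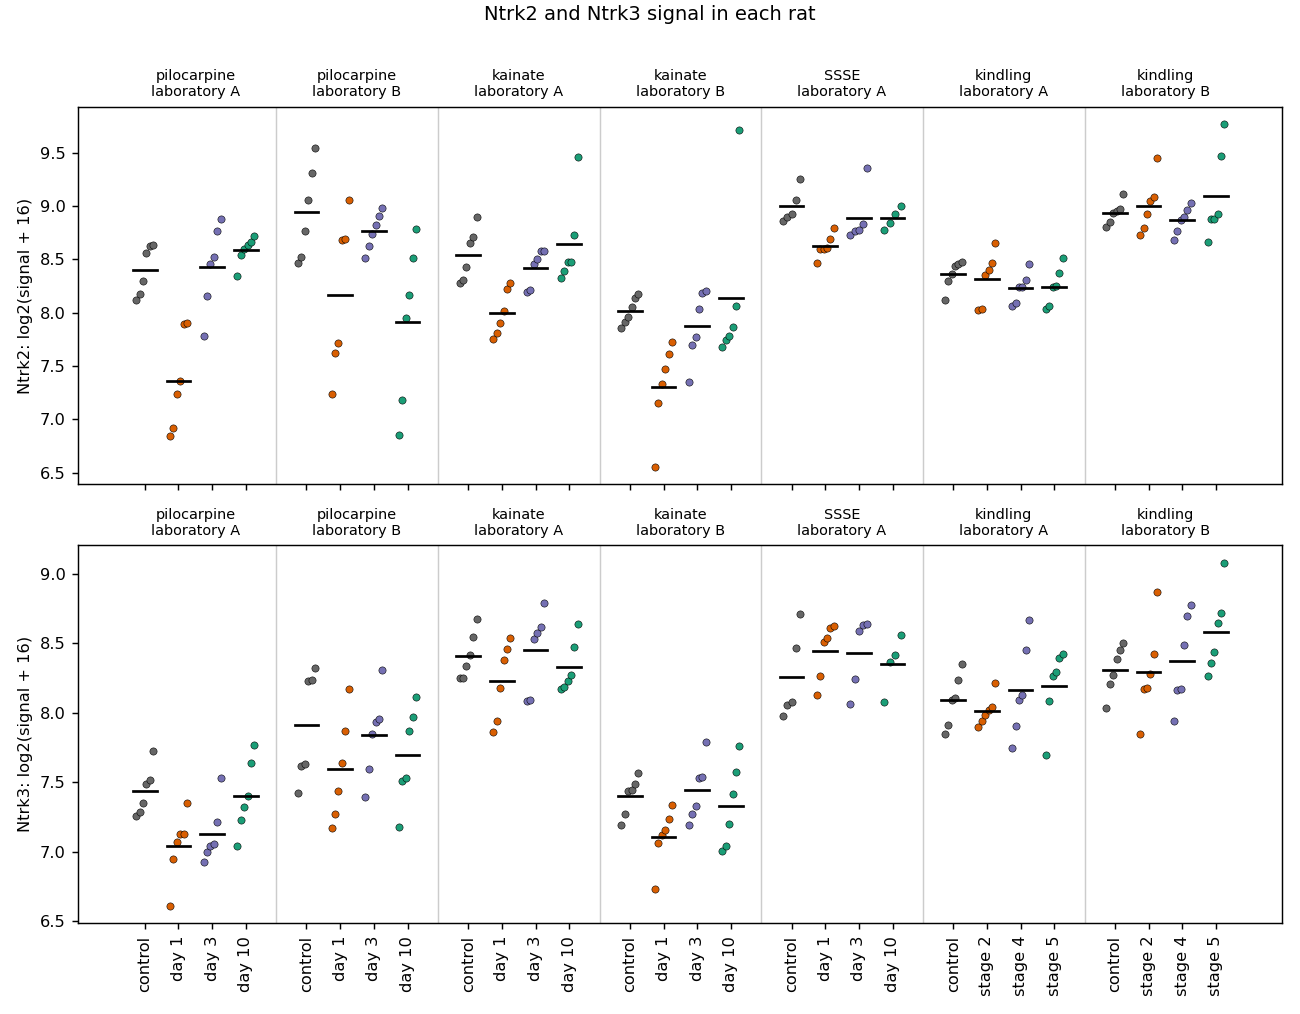
Signal of Ntrk2 (top) and Ntrk3 (bottom) in each of the 164 rats, as log2(signal + 16) on the vertical axes, by laboratory and by day or stage; each point is a rat and each bar the group mean. Ntrk2 of all 6 rats of pilocarpine laboratory A lies below the controls at day 1, while Ntrk3 overlaps its controls in most groups.

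Of the other Ntrk2 probe sets, the bright ones were also below controls at day 1 and the dim ones were not all so. Probe set 1368972_at represented the gene. A second one, 1383135_at, fell by -0.51 ± 0.16, -0.55 ± 0.11 and -0.54 ± 0.16 at day 1 of pilocarpine, kainate and SSSE (limma adjusted p = 0.012, 7.46e-05 and 0.0397; 11.3% of probe sets called in SSSE). Another, 1397246_at, fell at kainate day 1 by -0.68 ± 0.17 (adjusted p = 0.000794) and gave -0.34 ± 0.22 and -0.48 ± 0.16 at the other models (adjusted p = 0.245 and 0.0615). The dim probe sets 1370687_a_at and 1370652_at, above their array's median in 32 and 10 rats, were called nowhere. At day 1 of pilocarpine, kainate and SSSE, 1370687_a_at gave 0.21 ± 0.21, 0.21 ± 0.25 and 0.47 ± 0.35 (adjusted p = 0.478, 0.529 and 0.382), at a median signal of 16.3. Its change differed from that of 1368972_at with an exact permutation p under 0.05 before adjustment in 5 of 21 laboratory comparisons, among them pilocarpine laboratory A (-1.43), kainate laboratory B (-1.07) and SSSE (-0.84) at day 1. That of 1370652_at did so in 3 of 21. None passed after adjustment. However, the lowest exact p that 6 rats against 6 can give, 0.00216, was reached by 1370687_a_at at pilocarpine laboratory A day 1 and was adjusted to 0.227. These tests therefore cannot show that the probe sets agree. Which TrkB form each probe set reads was not determined. Astrocyte markers moved at the same times: of 13 tested, 9 fell and 2 rose at day 1 of both pilocarpine and kainate, with median changes of -0.82 and -0.50, and 6 fell and 1 rose at SSSE day 1, with a median of -0.52. Of all genes tested, 32.1%, 41.6% and 12.5% were called in either direction at day 1 of pilocarpine, kainate and SSSE. The summed signal of 14 astrocyte markers ranged from 2844 to 6485 at pilocarpine laboratory A day 1 against 7375 to 15710 in its controls, and from 5041 to 6388 against 7347 to 10226 in kainate laboratory B. The ranges overlapped in pilocarpine laboratory B (2807 to 11125 against 5983 to 10527, with 1 rat above every control), in kainate laboratory A (5640 to 8508 against 7095 to 10429) and in SSSE (4328 to 6837 against 5490 to 8209). Median signals of the 14 over all rats ran from 18.8 for Slc1a2, which did not pass the filter, to 1626 for Gja1, so bright genes weigh most in the sum. The part of these markers in the fall of Ntrk2 was not tested.

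Ntrk3, which encodes TrkC, changed little. It fell at pilocarpine day 1 by -0.36 ± 0.12 (limma adjusted p = 0.0235, 1.28-fold) and at kainate day 1 by -0.24 ± 0.10 (adjusted p = 0.04, 1.18-fold), with 7 of 12 rats below all their controls in each model. In pilocarpine laboratory A, controls ranged from 7.26 to 7.73 (median 7.42) and day 1 rats from 6.61 to 7.35 (median 7.10); in kainate laboratory B, controls ranged from 7.19 to 7.57 (median 7.44) and day 1 rats from 6.73 to 7.34 (median 7.14). The groups overlapped in each of the 4 laboratories. The pilocarpine call was lost without the rats numbered 3 (-0.27, adjusted p = 0.129) or 4 (-0.33, adjusted p = 0.0818), and the kainate call without those numbered 1, 2, 3 or 5 (-0.16 to -0.23, adjusted p = 0.0877 to 0.196) and when arrays were centred on their median (-0.21, adjusted p = 0.0996). At the other 10 points changes lay between -0.19 and 0.19, and none passed. In no single laboratory did Ntrk3 pass.

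Ngfr, which encodes the p75 receptor, was at the low end of the arrays. Its single probe set had a median signal of 2.26, from 0.281 to 14.8 over 164 rats, and lay above the array's median in 0 of them. When the filter was dropped, none of its 12 changes passed (-0.20 to 0.17, adjusted p = 0.224 to 0.997), and at this signal a change could not be measured. Ntf4, the gene of neurotrophin-4, was likewise low, with a median signal of 1.84.

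Levels in control rats differed between laboratories. Controls of the pilocarpine model had received methylscopolamine, and the handling of SSSE and kindling controls is not given. Laboratory and control handling therefore cannot be told apart between models. The arrays of controls differed as well. The log2 difference between the 3' and 5' Gapdh control probe sets ran from 1.19 in SSSE to 2.04 in pilocarpine laboratory A. The mean of the array medians was 31.7 in SSSE controls and 41.2 in pilocarpine laboratory A controls. The part of RNA or array quality in the levels below was not tested. Control means of Ntf3 ran from 9.96 ± 0.26 (SD, n = 5) in SSSE to 10.74 ± 0.28 (n = 6) in pilocarpine laboratory B, and none of the 6 steps between neighbours in that order exceeded the larger of the pair's SDs. Control means of Bdnf ran from 7.60 ± 0.54 in pilocarpine laboratory A, through 8.52 ± 0.50 in laboratory B of that model, 8.69 ± 0.21 and 8.74 ± 0.53 in kainate A and B, and 8.83 ± 0.34 and 9.13 ± 0.22 in kindling A and B, to 9.49 ± 0.34 in SSSE. The steps at both ends of that series, 0.91 and 0.36, exceeded the larger SD. Ntrk2 controls ran from 8.02 ± 0.13 in kainate laboratory B to 9.0 ± 0.16 in SSSE, and Ntrk3 controls from 7.40 ± 0.14 in kainate laboratory B to 8.41 ± 0.17 in kainate laboratory A. Over all 28 groups, Ntf3 was lowest at kainate laboratory B day 1 (6.85 ± 1.23) and highest in pilocarpine laboratory B controls, and Bdnf was lowest in pilocarpine laboratory A controls and highest at SSSE day 3 (10.27 ± 0.45). Neighbours in the order of 28 did not differ by more than the larger SD for Bdnf, Ntf3 and Ntrk3, and did so in 1 of 27 steps for Ntrk2. Sorting so many means makes small steps likely, so these steps do not show that groups are alike.

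Laboratories and models were compared by testing the differences themselves. Within laboratories Ntf3 was lower in 21 of 21 comparisons, from -0.11 in kindling laboratory B at stage 2 to -3.47 in kainate laboratory B at day 1. It was called in 9: in pilocarpine laboratory A at day 1 (22.6% of genes called) and laboratory B at days 1, 3 and 10 (15.1%, 3.62% and 8.38%), in kainate laboratory A at days 1 and 10 (21.6% and 2.06%) and laboratory B at day 1 (32.6%), and at stage 5 of kindling in laboratories A and B (0.976% and 0.344%). No member was called at day 3 or 10 of pilocarpine laboratory A (4.72% and 0.753%), at day 3 of kainate laboratory A (1.47%) and at days 3 and 10 of kainate laboratory B (4.28% and 0.892%). Bdnf was called in 2 of its 21, pilocarpine laboratory A day 1 and kainate laboratory B day 1 (1.05 ± 0.36, limma adjusted p = 0.0232), and Ntrk2 in 5, all falls. These comparisons share controls within a laboratory, and their error comes from all groups of a model. With each laboratory fitted alone, 4 calls were lost. They were Bdnf at kainate B day 1, Ntf3 at pilocarpine B day 3 and kindling A stage 5, and Ntrk2 at pilocarpine B day 1 (limma adjusted p = 0.0628, 0.0922, 0.0641 and 0.0952). Gained were Bdnf at day 10 of pilocarpine B and kainate A and Ntrk2 at kainate A day 1 (adjusted p = 0.0207, 0.0216 and 0.00941). None of 36 differences between laboratories A and B of a model passed for the 4 members, where at most 0.00929% of all genes passed in any of the 9 contrasts, and none of 48 differences between models passed, with 0% to 3.63% of genes called. At day 1 of pilocarpine against kainate, for example, Ntf3 differed by 0.85 ± 0.49 with a 95% interval from -0.11 to 1.82.

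Among co-receptors of the sortilin family, which bind neurotrophin precursors or sort Trk receptors, all 5 passed the filter. At day 1 of pilocarpine 2 rose and 2 fell: Sorcs1 rose by 1.98 ± 0.30, Sorcs3 by 1.75 ± 0.33, and Sorcs2 fell by -0.58 ± 0.15 (limma adjusted p = 1.48e-06, 4.5e-05 and 0.00188). At kainate day 1 again 2 rose and 2 fell, with Sorcs1 at 2.89 ± 0.21, Sorcs3 at 1.42 ± 0.23 and Sorl1 at -0.98 ± 0.11 (adjusted p = 1.69e-15, 2.09e-06 and 7.07e-10). At SSSE day 1 only Sorcs1 passed, with a rise of 1.79 ± 0.48 (adjusted p = 0.0204), and at kindling stage 5 none did. Of all genes, 32.1%, 41.6%, 12.5% and 7.1% were called at these points. Median changes of the family were -0.40, -0.02, -0.06 and -0.03, against 0.00, 0.02, 0.00 and -0.00 over all genes.

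Genes that cleave neurotrophin precursors or control those proteases were counted at day 1 of each status epilepticus model and at stage 5 of kindling. The list also held Cpe and Scg2, which are not of that kind. Of 11 tested, 6 rose and 1 fell at pilocarpine day 1, 5 rose and 2 fell at kainate day 1, and 3 rose and none fell at SSSE day 1 and at kindling stage 5, with median changes of 0.34, 0.22, 0.18 and 0.08. The share of all genes called in either direction at these points was 32.1%, 41.6%, 12.5% and 7.1%. Mmp9, a matrix metalloprotease that can cleave proBDNF, rose by 1.70 ± 0.28, 1.84 ± 0.23, 1.67 ± 0.21 and 0.80 ± 0.21 at these points (limma adjusted p = 6.66e-06, 5.88e-09, 0.000176 and 0.0127). The prohormone convertase gene Pcsk2 rose at kainate day 1 by 0.85 ± 0.16, at SSSE day 1 by 0.65 ± 0.18 and at stage 5 by 0.56 ± 0.11 (adjusted p = 2.21e-05, 0.0219 and 0.00181). The urokinase gene Plau rose by 0.83 ± 0.19 and 1.16 ± 0.20 after pilocarpine and kainate (adjusted p = 0.000563 and 5.75e-06). Serpini1, a protease inhibitor of neurons, fell by -0.81 ± 0.16 after pilocarpine (adjusted p = 0.000101). Microglial and macrophage markers, cells that can also make proteases, rose in 8 of 13 at pilocarpine day 1 and in 7 of 13 at kainate day 1, and in 0 of 13 at the other points. Their part was not tested.

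Of 31 Trk adaptor and kinase genes tested, 7 rose and 4 fell at pilocarpine day 1, 7 rose and 5 fell at kainate day 1, and 1 rose and 2 fell at both SSSE day 1 and stage 5, with medians between 0.00 and 0.09. The 11 and 12 called at day 1 of pilocarpine and kainate are near the share of all genes called there (32.1% and 41.6%). Camk2a, a calcium-dependent kinase gene, fell by -1.05 ± 0.29 and -1.12 ± 0.15 after pilocarpine and kainate (limma adjusted p = 0.00473 and 3.34e-08), and Camk4 by -0.95 ± 0.21 and -0.88 ± 0.18 (adjusted p = 0.000523 and 0.000113). The S6 kinase gene Rps6ka2 fell by -1.03 ± 0.11 at kainate day 1, -0.77 ± 0.17 at SSSE day 1 and -0.26 ± 0.08 at stage 5 (adjusted p = 7.61e-11, 0.00792 and 0.0346). Of 12 genes linked to p75, 3 rose and 3 fell at pilocarpine day 1 and 3 rose and 5 fell at kainate day 1, where 32.1% and 41.6% of all genes were called. Lingo1, a p75 co-receptor gene, rose by 1.20 ± 0.21 and 0.73 ± 0.22 (adjusted p = 1.62e-05 and 0.00585), while Rtn4, the gene of the ligand Nogo, fell by -0.83 ± 0.13 and -0.73 ± 0.06 (adjusted p = 2.59e-06 and 1.53e-14).

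Of 14 genes that regulate Bdnf transcription, 5 rose and 2 fell at pilocarpine day 1, 3 rose and 5 fell at kainate day 1, 1 fell at SSSE day 1 and none passed at stage 5, against 32.1%, 41.6%, 12.5% and 7.1% of all genes called. Crem, a CRE-binding factor gene, rose by 1.22 ± 0.21 after pilocarpine and 0.50 ± 0.19 after kainate (limma adjusted p = 9.74e-06 and 0.0355), Nfkb1 rose by 0.97 ± 0.19 and 0.62 ± 0.14 (adjusted p = 9.2e-05 and 0.000351), and Mef2a fell by -0.66 ± 0.11 and -0.48 ± 0.07 (adjusted p = 5.47e-06 and 3.2e-07). Of 18 genes known to be induced by BDNF and TrkB signalling, and by activity in general, 11 rose at pilocarpine day 1, 5 at kainate day 1 and 2 at SSSE day 1, none fell there, and 3 fell with none higher at stage 5. The medians were 0.89, 0.20, 0.43 and -0.15. Of all genes, 32.1%, 41.6%, 12.5% and 7.1% were called at these points, so the 5 of 18 at kainate day 1 lie below that share and the 2 of 18 at SSSE day 1 near it. The neuropeptide gene Npy rose by 2.56 ± 0.47, 3.21 ± 0.35 and 2.85 ± 0.76 at day 1 of pilocarpine, kainate and SSSE (adjusted p = 3.05e-05, 3.56e-10 and 0.0204). Inhba, the activin subunit gene, rose by 2.40 ± 0.39, 2.11 ± 0.44 and 1.61 ± 0.52 at the same points (adjusted p = 5.23e-06, 0.000139 and 0.0483) and fell at stage 5, as given above.

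Genes whose changes were most like those of each member were ranked by Pearson's r over the 21 laboratory comparisons. These share controls within a laboratory and so are not independent. Genes with provisional symbols (starting with LOC, RGD or a digit) were passed over, so the genes named are the closest among the rest. For Bdnf these were Plk2 (r = 0.90), Cnot6l (0.85), Terf2ip (0.83), Fosb (0.82) and Tspan5 (0.81), of which Plk2 and Fosb are activity-regulated genes. For Ntf3 they were Smyd2 (r = 0.95), Kcnq5 (0.94), Sstr2 (0.93), Itpr1 (0.93) and Col25a1 (0.93), among them a potassium channel, a somatostatin receptor and the inositol trisphosphate receptor. For Ntrk2 they were Septin4 (r = 0.93), Aldoc (0.92), Lrrn2 (0.92), Tmem14a (0.92) and Gstm1 (0.92), of which Aldoc was on the list of astrocyte markers. For Ntrk3 they were Rfx3 (r = 0.90), Rpn1 (0.89), Tusc3 (0.89), Wasf1 (0.88) and Celf2 (0.88), of which Rfx3 was on the list of granule cell markers. Between members r was 0.73 for Ntf3 and Ntrk2, 0.62 for both receptors, 0.49 for Ntf3 and Ntrk3, and between -0.46 and -0.52 for Bdnf and each of the others.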

How the data were processed

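RNA from laser-captured granule cells was hybridised to 172 one-colour Affymetrix arrays of 164 rats; 8 rats had a repeat array, averaged in log2. The authors deposited linear signal intensities from MAS5 (no version), per the submitters' processing notes; each array's trimmed mean was 150.04 to 150.06, and the number of arrays limits the precision. Probe sets with 1 gene symbol, no array control, and above their array's median in at least 6 rats were kept (14282), and the brightest stood for a gene (10761). Values were log2(signal + 16), so folds of dim probe sets are understated. limma 3.58.1 in R 4.3.3 fitted a mean per group within each model; p-values were adjusted by Benjamini-Hochberg over all genes, and an adjusted p under 0.05 was called. Exact permutation tests compared probe sets of a gene. The members and gene lists were chosen with earlier results of these data known. Named genes were the members, the 5 genes most like each (provisional symbols passed over), and up to 3 called genes per list with the largest change. Fos, Arc, Fosb and genes named for checks were taken outside that rule or from its lists. The script was tested on simulated data.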

Additional observations from a re-analysis of the deposited data

Results flagged for a closer look

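In 8 of the 112 groups and members examined, the highest or lowest rat stood apart from the rest of its group by Dixon's criterion, which chance meets in about 5% of groups; all values are log2(signal + 16). For Ntf3, SSSE day 3 rat 4 was the lowest at 5.12 (next 8.39), SSSE control rat 5 the lowest at 9.52 (next 10.00), kainate laboratory B day 10 rat 2 the lowest at 8.23 (next 9.65), and kindling laboratory A stage 5 rat 1 the highest at 10.39 (next 8.91). For Bdnf, SSSE control rat 4 was the lowest at 8.91 (next 9.52). For Ntrk2, SSSE day 3 rat 4 was the highest at 9.36 (next 8.83), kainate laboratory A day 10 rat 3 the highest at 9.46 (next 8.73) and kainate laboratory B day 10 rat 5 the highest at 9.71 (next 8.06). Bdnf was 10.99, 10.56 and 11.50 in these 3 rats with high Ntrk2, above every control. SSSE day 3 rat 4 thus had Ntf3 low and Bdnf and Ntrk2 high in the same sample, and it was also a rat that correlated less well with its group.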

How the results depend on the processing

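Of 1032 results of a member under an alternative setting, 996 kept direction and side of the threshold, 21 lost a call, 15 gained one and 0 reversed; 14 uncalled values changed sign. With an offset of 64, Ntf3 was called at kainate day 3 (-0.94, adjusted p = 0.0438) and SSSE day 1 (-1.62, 0.0413). Bdnf at pilocarpine day 10 was called with quantile normalization (0.83, 0.0431) and with the first array only (0.84, 0.0493). Centred on array medians, Ntrk3 at kainate day 1 lost its call (-0.21). With all 28 groups in a single fit, which leaves the change as it was and alters its error, Bdnf at pilocarpine days 3 and 10 (0.72 and 0.84), Ntrk2 at pilocarpine day 10 (-0.42) and Ntf3 at SSSE days 1 and 3 (-1.87 and -1.86) were called, and Ntrk3 at kainate day 1 (-0.24), Ntrk2 at SSSE day 1 (-0.37) and Bdnf at stage 5 (0.58) were not. Without rats of conflicting labels Ntrk2 at SSSE day 1 lost its call (-0.36, 0.0509); without doubted rats Ntf3 at SSSE day 1 was called (-1.87, 0.0144). The cause was not tested.

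Leaving out all rats of a number, or each single rat in SSSE, changed calls of Bdnf at pilocarpine day 10 (0.69 to 1.02), kainate day 1 (0.66 to 0.96) and stage 5 (0.43 to 0.66), Ntrk3 at pilocarpine day 1 (-0.41 to -0.27) and kainate day 1 (-0.31 to -0.16), Ntf3 at kainate day 10 (-1.77 to -1.20) and SSSE day 1 (-2.17 to -1.39), and Ntrk2 at SSSE day 1 (-0.40 to -0.31). Fitted alone, 4 of 72 laboratory results lost a call and 3 gained one. The labels do not say that rats of one number belong together, and they were not treated as pairs; for 50 of 164 rats, above the 27.2 expected by chance, the closest rat of another group in the same laboratory had the same number. With the replicate number as a block no call changed; Ntf3 at kainate day 10 was -1.47 (adjusted p = 0.00515). Genes called in all moved beyond 1.5 times at pilocarpine day 3 (1255 to 2553), pilocarpine day 10 (961; 574 to 2505), SSSE day 3 (338 to 215), SSSE day 10 (37; 17 to 59) and stage 5 (764 to 129).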
